A study of Mus musculus with 3 samples.

Results

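The mevalonate pathway was followed here through 8 of its enzymes, Hmgcs1, Mvk, Mvd, Idi1, Fdps, Fdft1, Sqle and Lss, in the RNA of apoptotic bodies (ABs) from the osteoclast lineage of the mouse. ABs are the membrane-bound fragments that dying cells shed. The 8 enzymes were chosen by their gene symbols in GENCODE M21, as the steps that lead from acetyl units to the first sterol ring and that include the target of the nitrogen-containing bisphosphonate drugs. All 8 had rows in the table of mRNAs, where they made up 8 of 15861 genes and 37 of 56651 transcripts, and none was absent. Of the 37 transcripts, 17 held at least 10% of the reads of their gene in at least 1 library and are called main transcripts below.

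The series holds 3 libraries, 1 for each stage of the lineage, and therefore no replicates. BMM-ABs came from bone marrow macrophages (BMMs), grown with M-CSF at 50 ng/ml for 72 h per the labels. pOC-ABs came from preosteoclasts, BMMs given RANKL at 100 ng/ml with M-CSF at 30 ng/ml for 24 h, and mOC-ABs from mature osteoclasts, given the same mixture for 72 h or more. The cells of all 3 groups were bone marrow cells from C57BL/6 mice of 11 weeks, which the paper describes as male, with no allele or transgene named in the labels, and the number of mice behind each library is not given in the sources used here. The titles of the samples name the cells and not their ABs, and they are treated here as AB libraries, from the description of the treatment.

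The sources differ on the agent that made the cells die, and the difference bears directly on these enzymes. The labels name alendronate, at 500 µM for 12 h, in every group. The paper names staurosporine, at 0.5 µM for 3 h, and gives 96 h of RANKL for mature osteoclasts and 50 ng/ml of M-CSF. Its culture in M-CSF to obtain BMMs is also shorter than the 72 h of the labels. Alendronate is a nitrogen-containing bisphosphonate whose enzyme target is the product of Fdps, while staurosporine is a broad inhibitor of protein kinases. Each group received the same inducer under either account, and no library of untreated ABs or cells was analysed here. A difference between libraries therefore cannot be read as an effect of the inducer, and whether the stages responded to it unequally was not tested.

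Cells build cholesterol and the isoprenoid lipids from acetyl-CoA along 1 shared route. Hmgcs1 makes HMG-CoA, which is reduced to mevalonate, and Mvk, Pmvk and Mvd turn mevalonate into isopentenyl diphosphate. Idi1 isomerises that unit, and Fdps joins such units to farnesyl diphosphate, the branch point. From there Fdft1, Sqle and Lss lead to squalene, its epoxide and lanosterol, while Ggps1 and the prenyltransferases attach isoprenoid tails to small GTPases. Osteoclasts need those tails for the cytoskeleton of the resorbing cell, and a block at Fdps is how nitrogen-containing bisphosphonates act on them. When a cell is short of sterol, the factor SREBP2 (Srebf2) raises the transcription of most genes of the route.

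The mRNA table held 9100082 reads for BMM-ABs, 7387317 for pOC-ABs and 7705592 for mOC-ABs. A gene's reads were taken as a share of that total (CPM, scaled to a total of 1000000), and log2 ratios of such shares are given with exact binomial (Clopper-Pearson) intervals at 95%, which cover counting error only. With 1 library per group there is no spread between samples and no test, so an interval that excludes 0 separates these libraries and not the stages. The labelled cells were checked against their markers. Of the 10 osteoclast markers listed, 8 had at least 20 reads and all 8 were higher in pOC-ABs and mOC-ABs than in BMM-ABs, their sum over the list being 345, 581 and 1870 CPM. Calcr had no row and Itgb3 had 6, 3 and 0 reads. Of the 8 macrophage markers, 7 had at least 20 reads and all 7 were lower in pOC-ABs and mOC-ABs than in BMM-ABs, with sums of 5772, 2741 and 1797 CPM. No neutrophil or erythroid marker had a row, and the B cell, T cell, stromal and megakaryocyte lists held at most 19 reads in a library. The markers moved with the stage, and their part in the differences below was not tested. In such bulk RNA, fewer vesicles of a kind and less of an RNA in each cannot be told apart.

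As a group, the 8 enzymes were most abundant in pOC-ABs and least abundant in mOC-ABs. Summed over the group, the level was 1061 CPM for BMM-ABs, 1304 CPM for pOC-ABs and 837 CPM for mOC-ABs. The log2 ratio of the sums was 0.30 (0.26 to 0.34) for pOC-ABs against BMM-ABs (G1), -0.34 (-0.39 to -0.30) for mOC-ABs against BMM-ABs (G2) and -0.64 (-0.68 to -0.59) for mOC-ABs against pOC-ABs (G3). The 3 comparisons share libraries, so that they are not independent of each other. Weighting each enzyme equally, the median log2 ratio was 0.46 in G1, -0.26 in G2, then -0.59 in G3, while over the 12713 genes with at least 20 reads in all it was -0.02, -0.05 and -0.05.

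Only a few enzymes passed the 2-fold limit in a comparison. In G1, 1 of 8 was above 2-fold, Idi1, where 4.87% of all genes were, and 1 of 8 was below 0.5, Sqle, where 6.06% of all genes were. In G2, none of the 8 was above 2-fold (4.15% of all genes) and 1 was below 0.5, again Sqle (9.01% of all genes). In G3, none was above 2-fold (3.5% of all genes) and 1 was below 0.5, Idi1 (6.86% of all genes). At a limit of 1.5-fold in either direction, 2 of 8 passed in G1 (29.6% of all genes), 1 of 8 in G2 (29.8%) and 4 of 8 in G3 (24.1%). The counts are small, each resting on 1 enzyme at the 2-fold limit. In direction alone, 6 of 8 were higher in G1 and 1 of 8 in each of G2 and G3, against 48.4%, 45.4% and 45.5% of all genes. Scaled to the total of the mRNA and lncRNA tables together, which took the median of all genes in G1 to -0.22, the median of the 8 in G1 was 0.26 and Lss turned to the lower side at -0.11.

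**Figure D1:**
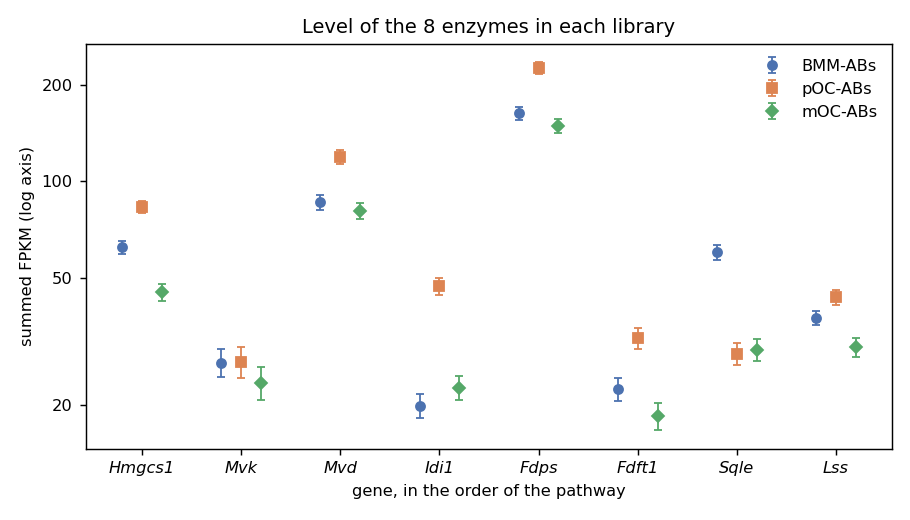
Level of each of the 8 enzymes in the 3 libraries, as deposited FPKM summed over the transcripts of the gene, on a log axis, with genes in the order of the pathway and bars for the 95% counting interval. Fdps is highest in every library, Idi1 stands out in pOC-ABs at 46.9 against 19.9 and 22.6, and Sqle in BMM-ABs at 59.9 against 28.8 and 29.7.

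Levels between genes were compared per length, as FPKM (reads per kilobase of transcript, scaled to the same library total) summed over the transcripts of a gene. Fdps was the most abundant of the 8 in every library, followed by Mvd and Hmgcs1 in that order. Hmgcs1 and Sqle overlapped in their intervals in BMM-ABs. Below them the order differed between libraries. Idi1 was last in BMM-ABs, where its interval overlapped that of Fdft1, and 4th in pOC-ABs, where it overlapped that of Lss. Sqle was 4th in BMM-ABs and 7th in pOC-ABs, where its interval overlapped those of Fdft1 and Mvk. In mOC-ABs, Lss and Sqle overlapped each other, as did Mvk and Idi1, and Fdft1 was last. Fdps stood at percentile 95.8, 96.6 and 94.8 of the 12713 genes by FPKM from BMM-ABs through pOC-ABs to mOC-ABs, while the lowest of the 8 in each library, Idi1, Mvk and Fdft1, stood at percentile 60.2, 70.6 and 59.7.

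Hmgcs1 (ENSMUSG00000093930, chromosome 13, 119690379 to 119708260, + strand, GRCm38) makes HMG-CoA and is the entry to the route. It had 1772 reads in BMM-ABs, 2033 reads in pOC-ABs and 1116 reads in mOC-ABs, or 62.3, 83.3 and 44.9 FPKM. The gene was thus highest in pOC-ABs and lowest in mOC-ABs, with log2 ratios of 0.50 (0.41 to 0.59) in G1, -0.43 (-0.54 to -0.32) in G2 and -0.93 (-1.03 to -0.82) in G3. In G3 it was 1.90-fold lower.

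Most reads of Hmgcs1 fell on a pair of coding transcripts with the same coding sequence of 1560 bases. ENSMUST00000224188 has an exon of 59 bases (119694989 to 119695047) that ENSMUST00000179869 lacks. They also differ at both ends, the former spanning 119690464 to 119708260 and the latter 119690446 to 119708082, and are 3464 and 3245 bases long. The transcript with the exon had 1298, 1985 and 960 reads from BMM-ABs through pOC-ABs to mOC-ABs, and the one without it had 343, 11 and 128. The form without the exon thus made up 19.4% (17.5 to 21.3) of the gene's reads in BMM-ABs, 0.541% (0.270 to 0.966) in pOC-ABs and 11.5% (9.66 to 13.5) in mOC-ABs. It was 25.3-fold lower in pOC-ABs than in BMM-ABs, a log2 ratio of -4.66 (-5.68 to -3.80) that rests on 11 reads in pOC-ABs. The form with the exon was higher in pOC-ABs, with a log2 ratio of 0.91 (0.81 to 1.02). How reads are split between such overlapping transcripts is the estimate of the authors' counting, and whether the exon or the ends set it was not tested.

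The stretch just before the start of Hmgcs1 is shown because it was the only one of the 5 windows found for these enzymes that held a sterol regulatory element as searched. The 250 bases lie on chr13:119690101-119690350, + strand, in RefSeq's GRCm38.p6, and end 1 base before the start RefSeq gives. Capitals mark TCACNCCAC, a form of the element that SREBP binds, and CCAAT, the box that NF-Y binds, in either orientation, where CCAAT on the other strand reads ATTGG.
Hmgcs1 upstream: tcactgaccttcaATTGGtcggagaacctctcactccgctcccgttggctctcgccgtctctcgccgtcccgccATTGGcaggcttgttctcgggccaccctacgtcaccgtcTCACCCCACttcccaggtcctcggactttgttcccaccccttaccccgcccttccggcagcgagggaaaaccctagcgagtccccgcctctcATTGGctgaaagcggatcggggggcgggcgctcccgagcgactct
Of 32851 such windows of RefSeq, 1.05% held TCACNCCAC in either orientation, and in Hmgcs1 it began 137 bases before the start. Windows were found for 5 of the enzymes, Hmgcs1, Mvk, Mvd, Idi1 and Lss. All 5 held CCAAT, which 33.8% of all windows held, and all 5 held GGGCGG, the GC box, which 32.7% held. Neither of these overlapped the sterol element of Hmgcs1. A match of letters is a description of the window and says nothing of binding in these cells.

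Mvk (ENSMUSG00000041939, chromosome 5, 114444269 to 114460591, + strand) encodes the kinase that phosphorylates mevalonate. It was the least read of the 8, with 404 reads in BMM-ABs, 309 reads in pOC-ABs and 289 reads in mOC-ABs, or 27.1, 27.1 and 23.3 FPKM. Its log2 ratios were -0.09 (-0.30 to 0.13) in G1, -0.24 (-0.47 to -0.02) in G2 and -0.16 (-0.39 to 0.08) in G3. The libraries thus did not differ beyond counting error in G1 and G3, and the interval in G1 leaves room for a ratio as low as -0.30 at this depth.

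The 4 main transcripts of Mvk moved in different ways. The longer coding form, ENSMUST00000112239, had 104, 121 and 153 reads from BMM-ABs through pOC-ABs to mOC-ABs, and the shorter one, ENSMUST00000043760, had 116, 95 and 58. The longer form thus went from 25.7% (21.5 to 30.3) of the gene's reads in BMM-ABs to 52.9% (47.0 to 58.8) in mOC-ABs, and the shorter from 28.7% (24.3 to 33.4) to 20.1% (15.6 to 25.2). They differ at the start of exon 4, where the longer one begins 36 bases earlier, at an acceptor on chr5:114450241-114450276, + strand, and gains 12 codons in frame. The junction is shown in both forms because it is the only difference between their coding sequences, with the extra bases in capitals between 15 bases of exon on either side.
Mvk longer form: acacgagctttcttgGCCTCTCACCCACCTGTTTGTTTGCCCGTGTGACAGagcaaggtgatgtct
Mvk shorter form: acacgagctttcttgagcaaggtgatgtct
A further coding form that ends early, ENSMUST00000137167, had 56, 46 and 25 reads. The remaining one, ENSMUST00000125120, keeps an intron of 679 bases (114445480 to 114446158) and had 121, 40 and 48 reads, which was 30.0% (25.5 to 34.7), 12.9% (9.41 to 17.2) and 16.6% (12.5 to 21.4) of the gene. With coding transcripts only, the log2 ratio of Mvk was 0.23 in G1 and 0.01 in G2, so that the sign of both turned.

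Mvd (ENSMUSG00000006517, chromosome 8, 122433601 to 122443422, - strand) encodes the decarboxylase that yields isopentenyl diphosphate. It had 1378 reads in BMM-ABs, 1543 reads in pOC-ABs and 1092 reads in mOC-ABs, or 86.1, 119 and 80.7 FPKM. It was highest in pOC-ABs, and BMM-ABs and mOC-ABs did not differ beyond counting error. The log2 ratios were 0.46 (0.36 to 0.57) in G1, -0.10 (-0.21 to 0.02) in G2 and -0.56 (-0.67 to -0.45) in G3. A single coding transcript, ENSMUST00000006692, held 1329, 1538 and 1089 of these reads. The remainder, 49, 5 and 3 reads, fell on ENSMUST00000211883, a target of nonsense-mediated decay, which was 3.56% (2.64 to 4.67) of the gene in BMM-ABs and 0.324% (0.105 to 0.755) in pOC-ABs.

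The window before Mvd is shown beside that of Hmgcs1 because both genes were higher in pOC-ABs while the windows differ in their motifs. It lies on chr8:122443423-122443672, - strand, in GRCm38.p6, and capitals mark the same motifs.
Mvd upstream: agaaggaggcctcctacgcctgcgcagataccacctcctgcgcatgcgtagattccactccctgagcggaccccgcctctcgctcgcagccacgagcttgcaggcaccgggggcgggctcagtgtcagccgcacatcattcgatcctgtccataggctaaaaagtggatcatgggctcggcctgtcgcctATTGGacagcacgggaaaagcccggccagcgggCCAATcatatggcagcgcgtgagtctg
It held CCAAT in both orientations and GGGCGG, and not the letters TCACNCCAC.

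Idi1 (ENSMUSG00000058258, chromosome 13, 8885501 to 8892451, + strand) encodes the isomerase that makes the starter unit for Fdps. It had 532 reads in BMM-ABs, 972 reads in pOC-ABs and 502 reads in mOC-ABs, or 19.9, 46.9 and 22.6 FPKM. pOC-ABs stood apart, and BMM-ABs and mOC-ABs did not differ beyond counting error. The gene was 2.25-fold (2.02 to 2.51) higher in pOC-ABs than in BMM-ABs, a log2 ratio of 1.17 (1.02 to 1.33), and 2.02-fold lower in mOC-ABs than in pOC-ABs, a log2 ratio of -1.01 (-1.17 to -0.86). In G2 the log2 ratio was 0.16 (-0.02 to 0.33). The interval of G3 reaches across the 2-fold limit, and with the total of both tables the ratios were 0.97 in G1 and -0.92 in G3, short of it. Nearly all reads fell on 1 coding transcript, ENSMUST00000169314, with 527, 948 and 495.

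Fdps (ENSMUSG00000059743, chromosome 3, 89093588 to 89101959, - strand) encodes farnesyl diphosphate synthase, the enzyme that alendronate inhibits. It had 1986 reads in BMM-ABs, 2221 reads in pOC-ABs and 1510 reads in mOC-ABs, or 163, 226 and 149 FPKM. Fdps was thus highest in pOC-ABs and a little lower in mOC-ABs than in BMM-ABs, with log2 ratios of 0.46 (0.37 to 0.55) in G1, -0.16 (-0.25 to -0.06) in G2 and -0.62 (-0.71 to -0.52) in G3. None of these ratios passed 2-fold.

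Fdps reads were divided between a pair of coding transcripts with the same coding sequence of 1059 bases. ENSMUST00000196709 has an exon of 216 bases (89100921 to 89101136) that ENSMUST00000081848 lacks. The former had 1085, 1278 and 1005 reads from BMM-ABs through pOC-ABs to mOC-ABs, and the latter 742, 828 and 464. The form with the exon thus held 54.6% (52.4 to 56.8) and 57.5% (55.5 to 59.6) of the gene's reads in BMM-ABs and pOC-ABs, whose intervals overlap, and 66.6% (64.1 to 68.9) in mOC-ABs. In G2 the forms pointed in opposite directions, with log2 ratios of 0.13 (0.0042 to 0.25) and -0.44 (-0.61 to -0.27). The gene shares 7512 bases of its locus, on the same strand, with Gm43738, which had 85, 85 and 55 reads, so that part of the reads could have been assigned to either.

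Fdft1 (ENSMUSG00000021273, chromosome 14, 63145150 to 63179578, - strand) encodes squalene synthase, which commits farnesyl diphosphate to sterols. It had 569 reads in BMM-ABs, 669 reads in pOC-ABs and 395 reads in mOC-ABs, or 22.4, 32.2 and 18.4 FPKM. The order was that of Hmgcs1 and Fdps, with log2 ratios of 0.53 (0.37 to 0.70) in G1, -0.29 (-0.48 to -0.10) in G2 and -0.82 (-1.00 to -0.64) in G3. Its shorter main transcript, ENSMUST00000054963, had 472, 631 and 375 reads. The longer one, ENSMUST00000224625, which has 2 more exons upstream and the same coding sequence of 1248 bases, had 85, 31 and 15. The longer form thus held 14.9% (12.1 to 18.1) of the gene's reads in BMM-ABs against 4.63% (3.17 to 6.51) in pOC-ABs and 3.80% (2.14 to 6.19) in mOC-ABs. Over 774 bases at its end Fdft1 overlaps the cathepsin gene Ctsb on the other strand, which had 14727, 5252 and 6091 reads. Whether the counting used the strand is not given in the sources used here, and in that stretch the reads of both genes cannot be told apart.

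Sqle (ENSMUSG00000022351, chromosome 15, 59315077 to 59331192, + strand) encodes squalene epoxidase, a rate-limiting step of the sterol branch. It had 1512 reads in BMM-ABs, 583 reads in pOC-ABs and 633 reads in mOC-ABs, or 59.9, 28.8 and 29.7 FPKM. BMM-ABs stood above the other libraries, which did not differ beyond counting error. Sqle was 2.10-fold lower in pOC-ABs and 2.02-fold lower in mOC-ABs than in BMM-ABs, with log2 ratios of -1.07 (-1.21 to -0.94) and -1.02 (-1.15 to -0.88), and its ratio in G3 was 0.06 (-0.11 to 0.22). Both intervals against BMM-ABs reach across the 2-fold limit, and the ratio in G2 lay short of it at -0.96 with median-of-ratios factors. It was the only one of the 8 that was far lower in pOC-ABs than in BMM-ABs, Mvk being lower within counting error. Its coding transcript ENSMUST00000022977 held 1461, 569 and 620 of the reads.

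Lss (ENSMUSG00000033105, chromosome 10, 76531588 to 76557138, + strand) encodes lanosterol synthase, which closes the first sterol rings. It had 1504 reads in BMM-ABs, 1301 reads in pOC-ABs and 913 reads in mOC-ABs, or 37.5, 43.3 and 30.2 FPKM. As a gene, Lss did not differ between pOC-ABs and BMM-ABs beyond counting error and was lower in mOC-ABs, with log2 ratios of 0.09 (-0.02 to 0.20) in G1, -0.48 (-0.60 to -0.36) in G2 and -0.57 (-0.69 to -0.45) in G3.

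The sum of the gene hid a large difference between the reads assigned to its transcripts. As for Hmgcs1, how reads are split between such overlapping transcripts is the estimate of the authors' counting. The coding transcript of Lss, ENSMUST00000048678, had 616 reads in BMM-ABs, 1059 reads in pOC-ABs and 726 reads in mOC-ABs. It held 41.0% (38.5 to 43.5) of the gene's reads in BMM-ABs against 81.4% (79.2 to 83.5) and 79.5% (76.8 to 82.1) in the other libraries. By itself it was higher in pOC-ABs than in BMM-ABs by a log2 ratio of 1.08 (0.94 to 1.23), and higher in mOC-ABs by 0.48 (0.32 to 0.63), so that the direction of the gene in G2 turned. The other main transcripts are annotated as retained introns, with no coding sequence.

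Among these, ENSMUST00000160671 spans the whole gene and keeps an intron of 576 bases (76535668 to 76536243). It also has an exon that the coding transcript lacks (76537569 to 76537663), and it ends at 76557138 where the coding transcript ends at 76555479. It had 424 reads in BMM-ABs, 8 reads in pOC-ABs and 9 reads in mOC-ABs, which was 28.2% (25.9 to 30.5), 0.615% (0.266 to 1.21) and 0.986% (0.452 to 1.86) of the gene. This transcript was 43.0-fold lower in pOC-ABs and 39.9-fold lower in mOC-ABs than in BMM-ABs. On so few reads the intervals are wide, with log2 ratios of -5.43 (-6.65 to -4.44) and -5.32 (-6.46 to -4.38). They leave out the error of assigning reads between this transcript and the coding one, which it overlaps. ENSMUST00000162475, which keeps another intron of 914 bases and ends early, had 236, 57 and 19 reads, and ENSMUST00000162848, at the end of the gene, had 200, 152 and 136. The last of them thus kept a similar share, 13.3% (11.6 to 15.1), 11.7% (9.99 to 13.5) and 14.9% (12.7 to 17.4). It keeps no whole intron of the coding transcript. The borders of the retained introns of Lss and Mvk are shown, 10 bases of exon and 20 of intron at each end, because reads across them are among what sets these transcripts apart, with capitals for the 2 outermost bases of the intron. Those of Lss lie on chr10:76535658-76535687 and chr10:76536224-76536253, and those of Mvk on chr5:114445470-114445499 and chr5:114446139-114446168, all on the + strand of GRCm38.
Lss intron, 5′ border: gctggggcttGTgagtatgcttaacagcag
Lss intron, 3′ border: ccagtctttactcccactAGgcacatcgag
Mvk intron, 5′ border: ccatggcaagGTaaaaagtccccagggagc
Mvk intron, 3′ border: ttttgccctttattctacAGgtcgctctgg
All of these borders carry the usual GT and AG.

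**Figure D2:**
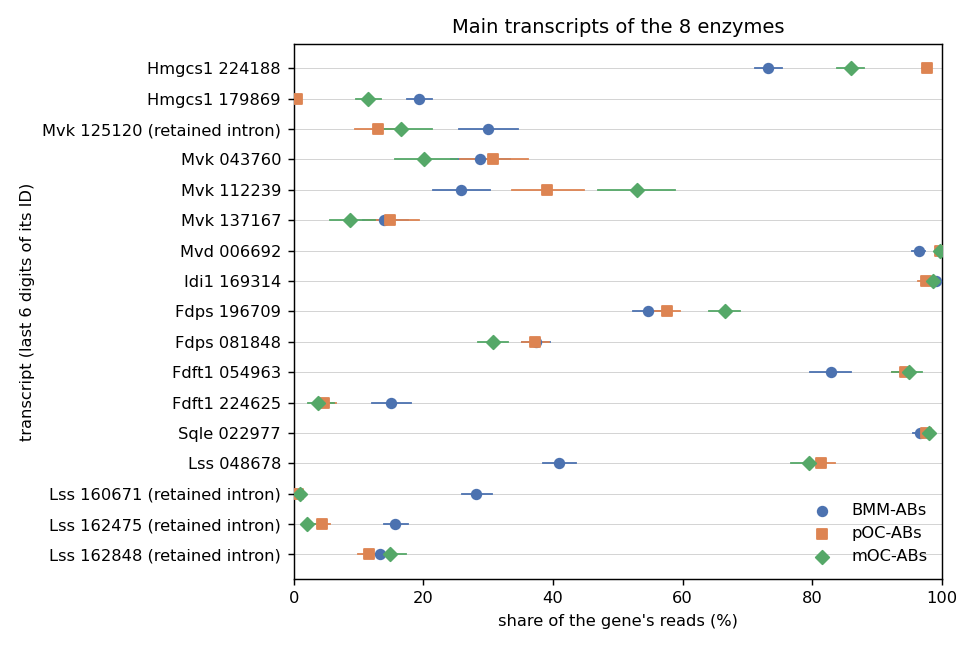
Share of the reads of its gene (percent) that each of the 17 main transcripts held from BMM-ABs through pOC-ABs to mOC-ABs, with lines for the exact 95% binomial interval. The coding transcript of Lss stands at 41.0% in BMM-ABs against 81.4% and 79.5% in the others, and the shorter Hmgcs1 transcript at 19.4%, 0.541% and 11.5%.

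Transcripts annotated as retained introns held a larger share of the reads of the 8 enzymes in BMM-ABs than in the other libraries. They held 1336 of 9657 reads in BMM-ABs (13.8%, 13.2 to 14.5), 440 of 9631 in pOC-ABs (4.57%, 4.16 to 5.00) and 297 of 6450 in mOC-ABs (4.60%, 4.11 to 5.14). The class belongs to the transcript as a whole, so a read counted here need not lie in an intron. Over all other protein-coding genes the share was 5.79%, 4.95% and 4.39%, so that it was also highest in BMM-ABs there, by a smaller margin. The share of the group in BMM-ABs rested largely on Lss, which held 886 of the 1336 reads. Without Lss, a choice made after seeing the data, it was 5.52% (5.03 to 6.04) in BMM-ABs, 2.42% (2.11 to 2.78) in pOC-ABs and 2.04% (1.68 to 2.45) in mOC-ABs. In pOC-ABs and mOC-ABs this was below the share over all other protein-coding genes. In BMM-ABs the interval holds that share of 5.79%, so the values did not differ beyond counting error. In Lss itself the share was 58.9% (56.4 to 61.4) in BMM-ABs, against 18.3% (16.2 to 20.5) in pOC-ABs and 20.2% (17.6 to 22.9) in mOC-ABs. In Hmgcs1 the share was 7.11% (5.96 to 8.41), 1.43% (0.957 to 2.04) and 1.97% (1.24 to 2.97), and in Fdps 6.95% (5.87 to 8.16), 4.46% (3.64 to 5.40) and 1.46% (0.915 to 2.20). Idi1 had its highest share in pOC-ABs instead, at 0.376% (0.0456 to 1.35), 1.34% (0.714 to 2.28) and 0.598% (0.123 to 1.74) on 2, 13 and 3 reads, with intervals that overlap. Fdft1 and Sqle stayed below 4% in every library, and Mvd has no such transcript in the table.

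**Figure D3:**
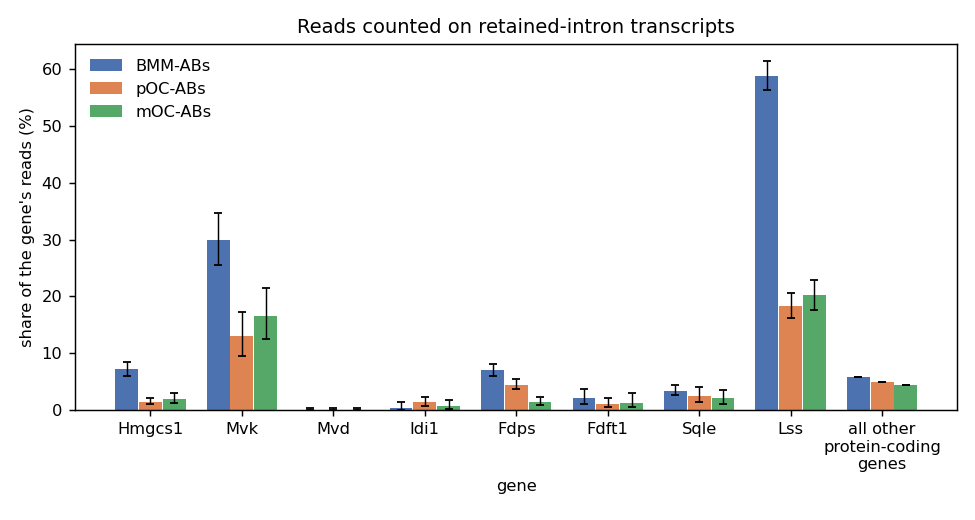
Share of the reads of each enzyme (percent) counted on transcripts annotated as retained introns in the 3 libraries, with exact 95% binomial intervals, beside all other protein-coding genes. Lss reaches 58.9% and Mvk 30.0% in BMM-ABs, against 5.79% over all other protein-coding genes.

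With coding transcripts only, the sum of the 8 enzymes gave log2 ratios of 0.45 (G1), -0.19 (G2) and -0.64 (G3). Lss then joined Idi1 above 2-fold in G1, and the median over the 8 in G2 came to -0.06. The ratio of mOC-ABs to pOC-ABs was thus the same with all transcripts and with coding ones only. That of mOC-ABs to BMM-ABs lay nearer to 0 with coding ones only. By coding FPKM, Lss was last of the 8 in BMM-ABs, at 15.2, and 5th in pOC-ABs, at 32.4.

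The 13 other enzymes of sterol synthesis, from a list chosen with earlier results of these data known, differed from the 8 in G1. Of the 13, 4 were higher and 9 lower in pOC-ABs than in BMM-ABs, with a median log2 ratio of -0.40, where 48.4% of all genes were higher. None of the 13 was above 2-fold (4.87% of all genes) and 2 were below 0.5 (6.06% of all genes). In G2, 2 were higher and 11 lower, with a median of -0.72, and in G3, 5 were higher and 8 lower, with a median of -0.30. Of all genes, 45.4% and 45.5% were higher in G2 and G3. Over all 21 enzymes the sum was 2046, 2074 and 1457 CPM from BMM-ABs through pOC-ABs to mOC-ABs, a log2 ratio of 0.02 (-0.01 to 0.05) in G1. With the total of both tables it was -0.18 (-0.21 to -0.15), so that the nearness of pOC-ABs and BMM-ABs held for the mRNA total and not for that one. No test of the difference between the lists was made.

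**Figure D4:**
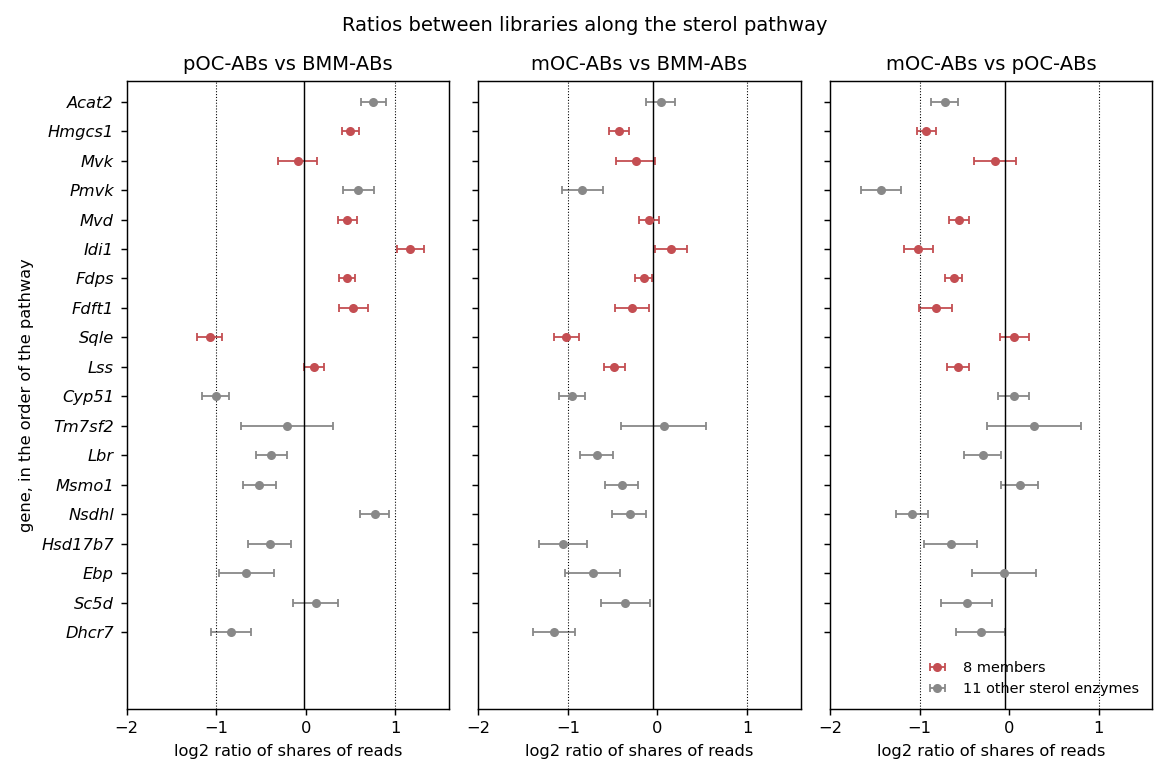
Log2 ratios of shares of reads in the 3 comparisons for the 8 enzymes (red) and 11 of the 13 other sterol enzymes (grey), from the first step to the last, with 95% counting intervals; the solid line is the median of all genes and the dotted lines are 2-fold. In pOC-ABs against BMM-ABs, the intervals of Acat2, Hmgcs1, Pmvk, Mvd, Idi1, Fdps, Fdft1 and Nsdhl lie above 0, those of Sqle, Cyp51, Lbr, Msmo1, Hsd17b7, Ebp and Dhcr7 below it, and those of Mvk, Lss, Tm7sf2 and Sc5d hold it.

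Early and late steps were thus not uniform. Pmvk, the kinase between Mvk and Mvd, had 495, 604 and 234 reads, and its ratio in G3 was -1.43 (-1.65 to -1.21), lower than that of any of the 8. Nsdhl, a dehydrogenase that helps to remove the methyl groups of lanosterol, had 563, 780 and 384 reads and was also past 2-fold in G3, at -1.08 (-1.26 to -0.91). These genes were highest in pOC-ABs, as were 6 of the 8. Of those 6, Lss did not differ between pOC-ABs and BMM-ABs beyond counting error.

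Other late enzymes were highest in BMM-ABs. Cyp51, which demethylates lanosterol, had 1277, 516 and 557 reads, a log2 ratio of -1.01 (-1.16 to -0.86) in G1. Dhcr7, a reductase of the last steps to cholesterol, had 551, 251 and 210 reads and a ratio of -1.15 (-1.39 to -0.92) in G2, and Hsd17b7, a ketoreductase of the same stretch, had 392, 241 and 160 and a ratio of -1.05 (-1.33 to -0.78) in G2. The highest library was thus BMM-ABs for these 3 genes, as for Sqle.

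The genes that sense and import sterol were lower in pOC-ABs, where most of the 8 enzymes were higher. Of 13 listed genes 12 had rows, all with at least 20 reads, of which 1 was higher and 11 lower in G1, with a median log2 ratio of -0.58. In G2, 2 were higher and 10 lower, with a median of -0.42, and in G3, 8 were higher and 4 lower, with a median of 0.20. Of all genes, 48.4%, 45.4% and 45.5% were higher in G1, G2 and G3. With the total of both tables, 0 of the 12 were higher in G1 and G2 and 11 in G3. That total took the median of all genes to -0.22, -0.15 and 0.05 in G1, G2 and G3. Insig1, which helps to hold SREBP in the endoplasmic reticulum, had 1351, 866 and 871 reads, with ratios of -0.34 (-0.47 to -0.22) and -0.39 (-0.52 to -0.27), and was highest in BMM-ABs. Insig2, its relative, was below 0.5 in G2 at -1.64 (-2.07 to -1.23) and in G3 at -1.03 (-1.49 to -0.57), with 228, 121 and 62 reads, and Npc1, which exports cholesterol from lysosomes, was below it in G1 at -1.18 (-1.35 to -1.00), with 1032, 371 and 486 reads.

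Efflux and fatty acid genes also tended to be lower in pOC-ABs than in BMM-ABs. All 4 genes of the LXR and efflux list were lower in G1 and in G2, with medians of -0.69 and -0.42. Of all genes, 48.4%, 45.4% and 45.5% were higher in G1, G2 and G3. Abca1, which loads cholesterol onto apolipoproteins, had 435, 92 and 69 reads, with ratios of -1.94 (-2.28 to -1.61) in G1 and -2.42 (-2.80 to -2.05) in G2, and Abcg1, another exporter of cholesterol, had 1767, 712 and 1245, with -1.01 (-1.14 to -0.88) in G1. In G3, 1 of these 4 genes was higher and 3 lower, with a median of -0.17, and 2 were higher with the total of both tables. Of 6 genes of fatty acid synthesis, 1 was higher and 5 lower in G1 (median -0.45), 3 were higher and 3 lower in G2 (-0.18), 4 were higher and 2 lower in G3 (0.39), and Scd2, a desaturase, had 11395, 4381 and 7390 reads and a ratio of -1.08 (-1.13 to -1.03) in G1. With the total of both tables, 2 of these 6 were higher in G2 and 5 in G3. That total took the median of all genes to -0.15 in G2 and 0.05 in G3.

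The isoprenoid branch that starts from the product of Fdps was mixed in direction. Of its 16 genes, 6 were higher and 10 lower in G1, 8 were higher and 8 lower in G2, 7 were higher and 9 lower in G3, with medians of -0.10, -0.04 and -0.03. Of all genes, 48.4%, 45.4% and 45.5% were higher. With the total of both tables, 5 were higher and 11 lower in both G1 and G2, with medians of -0.30 and -0.14 where those of all genes were -0.22 and -0.15, and 9 were higher and 7 lower in G3. Ggps1, which makes the geranylgeranyl unit, had 147, 151 and 87 reads and log2 ratios of 0.34 (0.0023 to 0.68) in G1, -0.52 (-0.92 to -0.12) in G2 and -0.86 (-1.25 to -0.47) in G3. It was thus lowest in mOC-ABs. Chml, an escort protein for the prenylation of Rab GTPases, had 227, 116 and 68 reads, with a ratio of -1.50 (-1.91 to -1.10) in G2. Rce1, the protease that trims prenylated proteins, had 100, 30 and 58 reads, with a ratio of -1.44 (-2.08 to -0.83) in G1.

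The GTPases that carry these tails were higher in pOC-ABs than in BMM-ABs by small amounts, and most were also higher in mOC-ABs. Their sum was 2053, 2476 and 2590 CPM from BMM-ABs through pOC-ABs to mOC-ABs, highest in mOC-ABs. All 6 listed (Rac1, Rac2, Rhoa, Cdc42, Rap1a and Rab7) were above 0 in G1, with a median log2 ratio of 0.30, 5 of 6 in G2 (0.23) and 2 of 6 in G3 (-0.07). Of all genes, 48.4%, 45.4% and 45.5% were higher. None of the 6 passed 1.5-fold in any comparison, where 29.6%, 29.8% and 24.1% of all genes did. With the total of both tables Rac1 and Rab7 turned to the lower side in G1, at -0.03 and -0.11, and 3 of 6 were higher in G3. The median of the 6 in G1 was then 0.10, where that of all genes was -0.22. The genes that release bisphosphonates from lysosomes into the cytosol, Slc37a3 and Atraid, were present in all libraries. Slc37a3 had 249, 134 and 167 reads, with ratios of -0.59 (-0.91 to -0.28) in G1 and -0.34 (-0.63 to -0.05) in G2. Atraid, with 84, 61 and 89 reads, did not differ beyond counting error in any comparison, at -0.16 (-0.66 to 0.33), 0.32 (-0.12 to 0.77) and 0.48 (-0.0020 to 0.98).

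**Figure D5:**
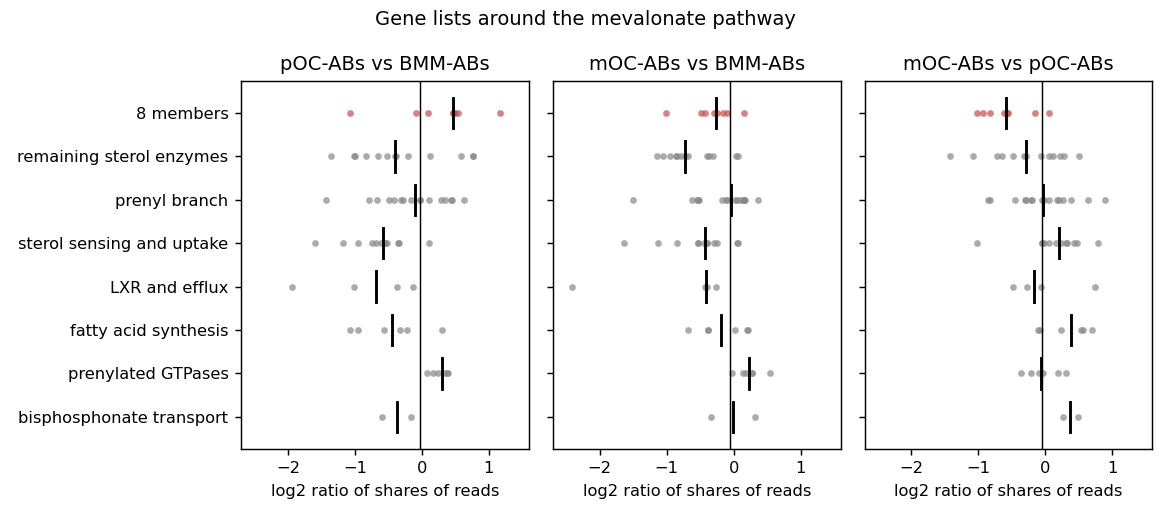
Log2 ratios of shares of reads for each gene (points) of the 8 enzymes and 7 related lists in the 3 comparisons, with a thick bar at the median of each list and a thin line at the median of all genes. In pOC-ABs against BMM-ABs the median is 0.46 for the 8 enzymes, -0.40 for the remaining sterol enzymes and -0.58 for sterol sensing and uptake.

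The genes whose ratios were closest to the median of the 8 were sought among the 59 genes of the other lists with at least 100 reads, by the Euclidean distance in the pair of log2 ratios of G1 and G2. They were Rhoa, at a distance of 0.27, Ggps1 at 0.28 and Nsdhl at 0.31. Rhoa, a GTPase of the actin cytoskeleton, had 3071, 3175 and 2566 reads, with ratios of 0.35 (0.28 to 0.42) and -0.02 (-0.10 to 0.06). Of 10828 genes with that many reads, 453, 496 and 639 lay as close or closer, or 4.18%, 4.58% and 5.90%, so that such a pattern was common.

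The length of transcripts and the ratios were related over all genes, which touches the comparison of short and long enzymes. Over 10938 protein-coding genes, which share the libraries and their depth, Spearman's rho between length and log2 ratio was -0.23 (G1), -0.15 (G2) and 0.10 (G3). The median ratio in G1 was 0.15 in the shortest of 4 equal length bins and -0.18 in the longest. The read-weighted lengths of the 8 ran from 1381 bases for Fdps to 4828 for Lss, with Fdps, Mvd and Mvk in the shortest bin. When the median of the gene's own length bin was taken off, the ratio in G1 was 0.31 for Fdps, 0.32 for Mvd and 0.59 for Hmgcs1, and the median over the 8 was 0.31 (G1), -0.25 (G2) and -0.54 (G3). The part of RNA length or quality in these ratios was not otherwise tested.

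No back-splice junction of any of the 8 enzymes was among the 1372 circular RNAs listed. Those of genes in the other lists had at most 6 junction reads in a library. The RNA was purified on poly-T beads, and how far circular RNAs passed that step was not tested. The lncRNA table held 5 transcripts at the loci of the 8. They lay at Idi1, Fdft1 and Lss, and none had more than 37 reads in a library.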

How the data were processed

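RNA of ABs was sequenced by the authors after purification on poly-T beads, and the notes of the submitters name FastQC, HISAT2, StringTie and GRCm38, with no versions. The authors deposited read counts and FPKM for every mRNA transcript, read counts for lncRNAs and junction read counts for circRNAs. FPKM equalled the counts scaled by transcript length and the total of the mRNA table. Counts were summed per gene with GENCODE M21, which 56440 of the 56651 transcripts matched, and each gene's sum was divided by the total of the mRNA table (Python 3.11.15, pandas 2.3.3, scipy 1.17.1). Ratios carry Clopper-Pearson intervals at 95% for counting error only. The reads have no molecular identifiers, so copies made by PCR could not be removed and the intervals may be too narrow. The intervals also leave out the error of assigning reads between overlapping transcripts. The calculation was tested on simulated counts with counting error alone, which cannot show either limit. With 1 library per group no test was possible, and called means past 2-fold, among genes with at least 20 reads. The members and lists were chosen with earlier results of these data known. The text names the 8 members, their main transcripts, Ggps1, Insig1, Slc37a3 and Atraid, each other listed gene with at least 100 reads that passed 2-fold, and the 3 genes most alike; some listed genes, though counted in the lists, are not reported here by name. Promoter windows were those of RefSeq (GRCm38.p6), and 3 of the 8, Fdps, Fdft1 and Sqle, were not matched. Processed copies of the genes elsewhere were not searched. Alternatives were the total of the mRNA and lncRNA tables, median-of-ratios factors, the upper quartile, deposited FPKM with and without a pseudocount of 1, coding transcripts only, other read minimums and, chosen after seeing the data, centring by length bin and leaving Lss out of the share of retained introns.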

Additional observations from a re-analysis of the deposited data

Results flagged for a closer look

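Reads outside the mRNA table lay at the loci of 3 of the enzymes, above the 3 reads that a count of 0 allows, with no control library to set them against. At Idi1, ENSMUST00000221551 (Gm48574, chromosome 13, 8884914 to 8885823), on the other strand at the 5′ end of the gene, had 2 reads in BMM-ABs, 34 reads in pOC-ABs and 3 reads in mOC-ABs, and pOC-ABs are also where Idi1 was highest. At Fdft1, NONMMUT143176.1 had 4, 0 and 0 reads and NONMMUT143177.1 (chromosome 14, 63177986 to 63179449) had 16, 37 and 19, in the stretch that holds an upstream exon of the longer Fdft1 transcript (63178893 to 63178977). At Lss, NONMMUT006255.2 (chromosome 10, 76555877 to 76557137), which lies beyond the end of the coding transcript and within the longest one, had 9, 6 and 9 reads. With strand use of the counting not given in the sources used here, these reads and those of the enzymes cannot be told apart.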

How the results depend on the processing

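With the total of the mRNA and lncRNA tables, which took the median of all genes to -0.22, -0.15 and 0.05 in G1, G2 and G3, the summed ratio of the 8 was 0.10, -0.44 and -0.54, the median in G1 was 0.26, and 1 enzyme passed 2-fold in G1 and 0 in G3. The other sterol enzymes then had medians of -0.60, -0.82 and -0.20, with 0 of 13 higher in G2. Relative to all genes the members kept their distance, since that scaling shifts every gene alike. Deposited FPKM gave summed ratios of 0.34 in G1 and -0.26 in G2, with or without the pseudocount of 1. Coding transcripts only gave 0.45 and -0.19 and a median of -0.060 in G2. Median-of-ratios factors gave -0.28 for the sum in G2, and length centring, chosen after seeing the data, a median of 0.31 in G1. The count past 2-fold in G2 was 0 with median-of-ratios factors, the upper quartile, FPKM plus 1, coding transcripts and length centring, and in G3 it was 0 with median-of-ratios factors, the upper quartile and length centring; Sqle in G2 and Idi1 in G3 lay close to that limit. Of 168 values for single enzymes 144 moved by less than their counting interval and 24 by more, and 6 changed sign, all of Lss or Mvk. Among all genes, 19.3% were past 2-fold in G1 with no read minimum and 7.12% with at least 100 reads, against 10.9% as reported. No paired analysis was possible because each group has 1 library, and none could be left out. Among the 8 the depth limits Mvk, the least read, most, and it limits listed genes with fewer reads, such as Rce1, Atraid and Ggps1, more.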
